A study of Mus musculus with 6 samples.

Results

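The genes described here store, bind, release or sense fatty acids in macrophages: Plin2, Plin3, Hilpda, Fabp4, Fabp5, Pparg, Lpl, Dgat1, Dgat2 and Pnpla2. They are 10 of the 55335 genes of the count table, found by symbol, and all 10 were among the 13901 genes with enough counts to be tested. The set was chosen by name with the fold changes and p-values of an earlier analysis of this same comparison in view, so the values below are a description. Adjusted p-values are those of the fit over all tested genes and give the set no independent support. The RNA came from mouse bone marrow-derived macrophages (BMDMs), primary cells kept in culture with 20 ng/mL macrophage colony-stimulating factor and 10% serum. On day 5 all cultures received conditioned medium of injured acinar cells of the pancreas (PAC-CM), a culture setting for acute pancreatitis. In 3 libraries it was given without kinsenoside (PAC-CM), and in 3 with 400 µM kinsenoside (PAC-CM-KD), a glycoside from plants. Every group had the conditioned medium, so the comparison is of kinsenoside against its absence and not of medium against none. The labels used here do not state the strain, sex or age of the mice, or whether each replicate had its own culture or animal. The p-values thus speak of the spread among these 6 libraries, which may be technical.

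A lipid droplet is a store of triglycerides and sterol esters under a phospholipid monolayer. Perilipins coat it, the acyltransferases DGAT1 and DGAT2 make its triglyceride, and the adipose triglyceride lipase encoded by Pnpla2 opens it. Fatty acids reach the macrophage partly through lipoprotein lipase, are carried in the cytosol by fatty acid binding proteins, and act as ligands of the nuclear receptor PPAR-gamma. PPAR-gamma in turn is known to drive Fabp4, Plin2 and the uptake receptor gene Cd36. Macrophages that store much lipid are known as foam cells.

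Library totals lay between 41125059 and 47461702 counts, at which 3 counts correspond to 0.0632 to 0.0729 CPM (a count over its library's total count, times 1e6). On the first principal component, with 28.8% of the variance, PAC-CM libraries lay at -25.7 to -11.9 and kinsenoside libraries at 4.3 to 30.7. On the second principal component, with 23.6% of the variance, kinsenoside replicate 1 lay apart at -39.3, against -6.1 to 19.7 for the other libraries. The cells carried macrophage markers, with Lyz2 at a mean of 12590 CPM. The summed level of the 13 macrophage markers was 22620 to 24490 CPM in PAC-CM and 24970 to 27270 CPM with kinsenoside, without overlap. Lyz2 was the largest part of these sums, at 11810 ± 877 and 13370 ± 1725 CPM (SD, n = 3 each), and its own groups overlapped. Of 12 adipocyte markers, a list that matters for Fabp4 and Pparg, 11 had a mean under 1 CPM, with Lep, Cidec and Adrb3 at 0 in all libraries. The exception was Lipe at 24.7 CPM, and the sum overlapped between the groups (23.3 to 30.0 and 21.2 to 27.9 CPM). Of 22 acinar markers 21 were under 1 CPM, with sums of 8.84 to 10.2 and 7.56 to 10.3 CPM. The neutrophil list of 11 genes had sums of 67.0 to 83.9 CPM in PAC-CM and 113 to 169 CPM with kinsenoside. Mmp8, a collagenase gene, made up most of that gap (36.4 ± 7.28 and 98.0 ± 24.6 CPM, SD, n = 3 each), 9 of the 11 had a mean under 1 CPM, and Elane and Retnlg were at 0. Mrc1, the mannose receptor gene, was the only gene of the marker lists that was called (93.7 ± 5.84 and 143 ± 14.8 CPM, SD, n = 3 each, edgeR adjusted p = 0.0316). Of the remaining lists, fibroblast markers summed to at most 2.002 CPM in any library, dendritic markers to 9.76 and lymphoid markers to 15.4. Endothelial and epithelial markers summed to 98.0 to 127 and 91.7 to 158 CPM, with overlap, with Kdr and Vwf the most abundant and 6 of the 9 genes under 1 CPM. The part of these marker differences in the results below was not tested.

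Plin2 rose, and the other members did not pass the test. By the quasi-likelihood F test of edgeR, adjusted after Benjamini and Hochberg over 13901 genes, 1 of the 10 members was called, in the higher direction, where 0.511% of all tested genes were called and 0.209% were called higher. All 3 kinsenoside libraries lay above all 3 PAC-CM libraries in CPM for 4 members (Plin2, Fabp4, Fabp5 and Pparg), against 6.86% of all tested genes. They lay below for 1, Dgat2, against 15.7%. Nothing is read from these shares, since the members were chosen with the same contrast known. After scaling by trimmed mean of M-values (TMM) factors, an alternative added after the data were seen, the counts of members were 5 and 1, with Plin3 added, and those of all genes 10.4% and 11.4%. The plot of CPM by library shows all 10. These are levels in bulk RNA, in which a change in the share of expressing cells and a change in RNA per cell cannot be told apart.

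**Figure D1:**
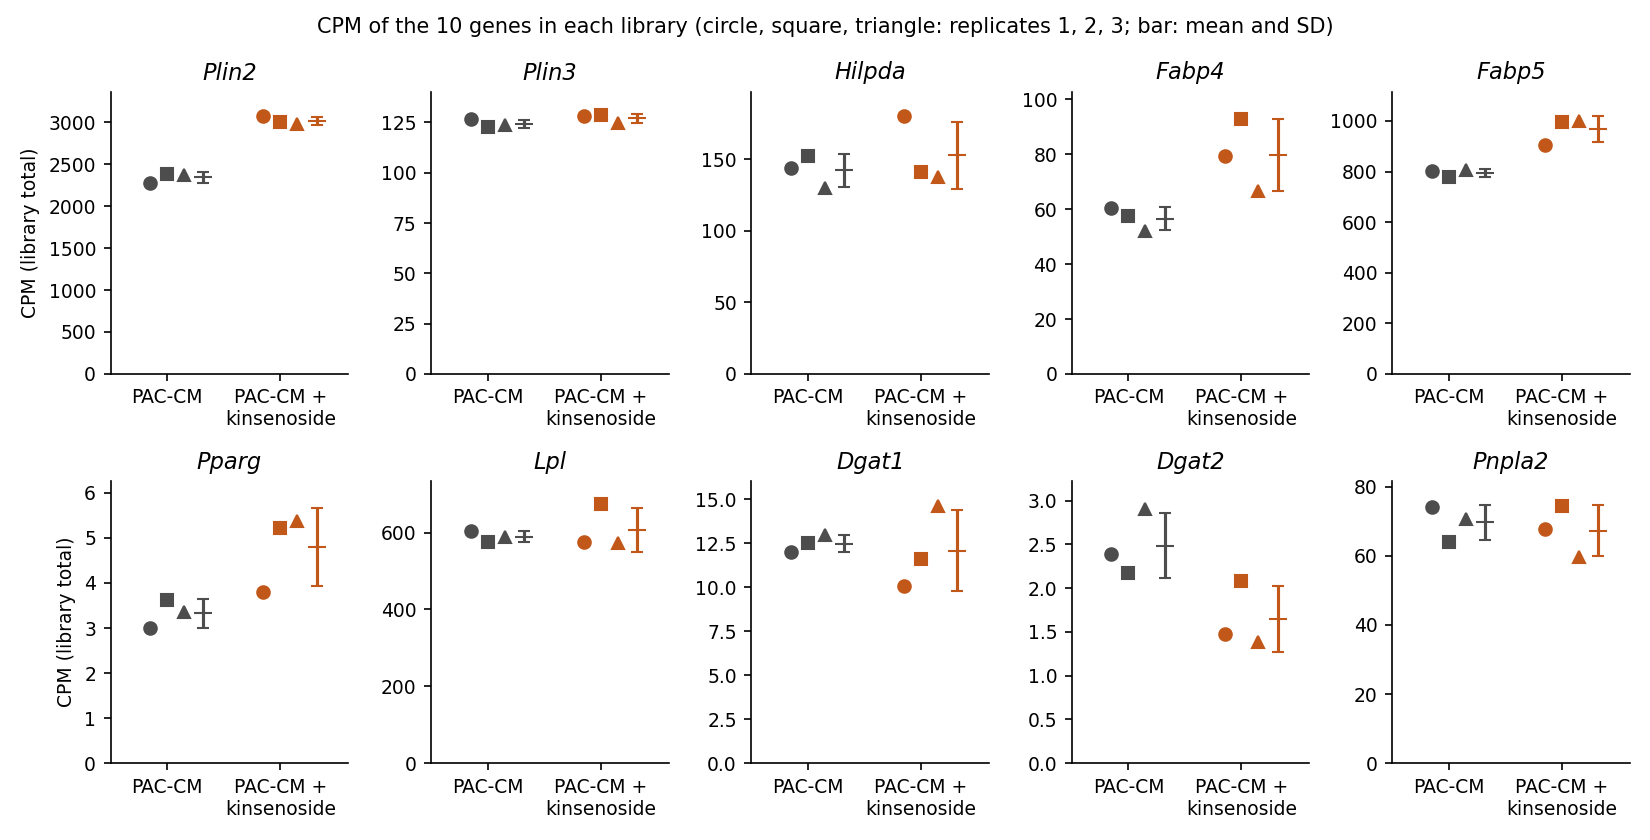
CPM (vertical axes, each from 0) of the 10 genes in the 3 PAC-CM libraries (grey) and the 3 kinsenoside libraries (orange), 1 point per library (circle, square and triangle for replicates 1 to 3), with mean and SD. Plin2 sits between 2273 and 2387 CPM in PAC-CM and between 2983 and 3071 CPM with kinsenoside, whereas Plin3, Hilpda, Lpl, Dgat1 and Pnpla2 overlap between the groups.

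The perilipins are the coat proteins, and the coat most typical of macrophages is Plin2. Plin2 (ENSMUSG00000028494, chromosome 4, 86648386 to 86670060, minus strand, GRCm38) had 97861, 113272 and 104348 counts in PAC-CM replicates 1 to 3 and 133392, 126693 and 122672 with kinsenoside. As CPM these were 2273, 2387 and 2365 against 3071, 3002 and 2983. The kinsenoside libraries were high together, with a coefficient of variation of 1.54% against 2.58% in PAC-CM, and the groups did not overlap. The mean went from 2342 ± 60.4 to 3019 ± 46.4 CPM (SD, n = 3 per group), a log2 fold change of 0.41 (SE 0.0567, 95% interval 0.28 to 0.54), or 1.33-fold, with an edgeR adjusted p of 0.0299. The size held over 15 alternative analyses, at 0.37 to 0.43, but the call did not. Of the fits with 1 library left out, it was lost in 5: without PAC-CM replicate 1, 2 or 3 (edgeR adjusted p = 0.136, 0.139 and 0.105) and without kinsenoside replicate 2 or 3 (0.129 and 0.0537). The gene ranked 29 among 55335 by mean CPM, and its counts alone were 0.227% to 0.239% of a PAC-CM library and 0.298% to 0.307% of a kinsenoside library.

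Plin3, the coat protein that moves between cytosol and nascent droplets (chromosome 17, 56277476 to 56292873, minus strand), had CPM of 127, 123 and 124 in PAC-CM and 128, 129 and 125 with kinsenoside. These groups overlapped in CPM. The log2 fold change was 0.08 (SE 0.0561, 95% interval -0.05 to 0.21, edgeR adjusted p = 0.573). The other perilipins, the adipocyte coats Plin1 and Plin4 and the coat of oxidative tissues Plin5, had at most 3 counts in any library. The count ratio of Plin2 to Plin3, which no scaling between libraries touches, was 17.95, 19.5 and 19.2 in PAC-CM and 24.0, 23.3 and 24.0 with kinsenoside. Kinsenoside libraries were above PAC-CM libraries without overlap, by 1.26-fold, and by 0.30 to 0.36 on the log2 scale whichever library was left out.

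The bases just before the RefSeq start sites of both perilipin genes are shown because Plin2 passed the test and Plin3 did not. They are RefSeq's windows on GRCm38.p6, 250 bases each, 5′ to 3′ on the gene's own strand. Capitals mark AGGTCA, the core hexamer that nuclear receptors such as PPAR-gamma and its partner RXR bind, on either strand (TGACCT when read on the other). The Plin2 window is chr4:86670060-86670309 and the Plin3 window chr17:56290512-56290761, both on the minus strand. RefSeq's start of Plin3 lies inside the gene as GENCODE M21 spans it above, so that window is within the GENCODE gene, over none of its exons, and not before its outermost start.
Plin2: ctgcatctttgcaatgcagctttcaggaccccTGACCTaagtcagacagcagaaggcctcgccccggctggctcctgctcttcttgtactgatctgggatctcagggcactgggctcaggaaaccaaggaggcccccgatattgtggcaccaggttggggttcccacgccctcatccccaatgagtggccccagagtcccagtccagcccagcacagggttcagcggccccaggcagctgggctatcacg
Plin3: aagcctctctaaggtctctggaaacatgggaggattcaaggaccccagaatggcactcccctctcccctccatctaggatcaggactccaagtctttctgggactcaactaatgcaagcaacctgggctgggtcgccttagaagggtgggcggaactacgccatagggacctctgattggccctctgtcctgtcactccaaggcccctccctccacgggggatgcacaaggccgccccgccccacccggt
The Plin2 window held 1 hexamer, at position -218 from the start, and the Plin3 window none. The hexamer was also in 2 of the 3 windows of Pparg (at -28 and -9), which did not pass the test, and in no window of Hilpda or Pnpla2. Those 2 Pparg windows lay partly over exons annotated in GENCODE M21, with 193 and 57 of their 250 bases. A window of Hilpda did so with 121 bases, so these windows are not wholly upstream sequence. Of 32851 RefSeq windows of all genes, 14.0% held at least 1 hexamer. The full PPAR-RXR element, AGGTCA repeated after 1 base, matched in none of the 8 windows of the 5 members with an entry (Plin2, Plin3, Hilpda, Pparg and Pnpla2) and in 0.03% of all windows. Each such element also holds the hexamer. The E-box CACGTG, searched as well, was in none of the 8 and in 6.02% of all windows. A match is a description of letters, and its absence says only that they are not in this window.

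The fatty acid binding proteins ferry fatty acids in the cytosol, and the genes Fabp4 and Fabp5 lie on chromosome 3 (10204088 to 10208576, minus strand, and 10012548 to 10016607, plus strand). Fabp5, the epidermal type that macrophages also make in quantity, had CPM of 802, 777 and 808 in PAC-CM and 907, 996 and 999 with kinsenoside. The groups did not overlap, and kinsenoside replicate 1 was the lowest of its group. The mean went from 796 ± 16.3 to 967 ± 52.4 CPM (SD, n = 3 per group), a log2 fold change of 0.33 (SE 0.0628, 95% interval 0.18 to 0.47), and edgeR's adjusted p was 0.0748. Fabp5 passed in 2 of 15 alternatives, with DESeq2 (adjusted p = 0.0021) and with edgeR when kinsenoside replicate 1 was left out (adjusted p = 0.0405). Of 838 stretches of 150 bases in its longest coding transcript, the read length of these libraries, 30 also occur in the transcript of Gm6166, a separate entry with 704 to 866 counts per library against 34533 to 42017 for Fabp5. No other member shared such a stretch with another gene.

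Fabp4, the adipocyte type, is also a product of lipid-laden macrophages. Its CPM were 60.4, 57.4 and 52.1 in PAC-CM and 79.5, 93.1 and 66.7 with kinsenoside. All kinsenoside libraries were above the PAC-CM libraries, with replicate 3 nearest to them. Fabp4 had a log2 fold change of 0.54 (SE 0.117, 95% interval 0.27 to 0.81), or 1.45-fold, at an edgeR adjusted p of 0.0983, and passed in DESeq2 only (adjusted p = 0.00267) among the 15 alternatives. The ratio of Fabp4 to Fabp5 counts was 0.0753, 0.0738 and 0.0645 in PAC-CM and 0.0877, 0.0935 and 0.0667 with kinsenoside, so the groups overlapped in this balance.

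Pparg encodes PPAR-gamma (chromosome 6, 115360951 to 115490399, plus strand) and was a gene of low level here. It had 129, 172 and 148 counts in PAC-CM and 165, 220 and 221 with kinsenoside, which are 2.996, 3.62 and 3.35 CPM against 3.80, 5.21 and 5.37 CPM. Kinsenoside replicate 1 was close to PAC-CM replicate 2, and the other kinsenoside libraries stood higher. The log2 fold change was 0.57 (SE 0.174, 95% interval 0.18 to 0.97), the largest estimate of the 10 and the widest of those above 0, with an edgeR adjusted p of 0.188. It passed in none of 15 alternatives, with adjusted p between 0.0989 and 0.442. Counting error alone was about 8.17% of a PAC-CM count, and the observed coefficient of variation was 9.47% in PAC-CM and 18.1% with kinsenoside. The transcripts that start at different Pparg promoters are summed in these counts.

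**Figure D2:**
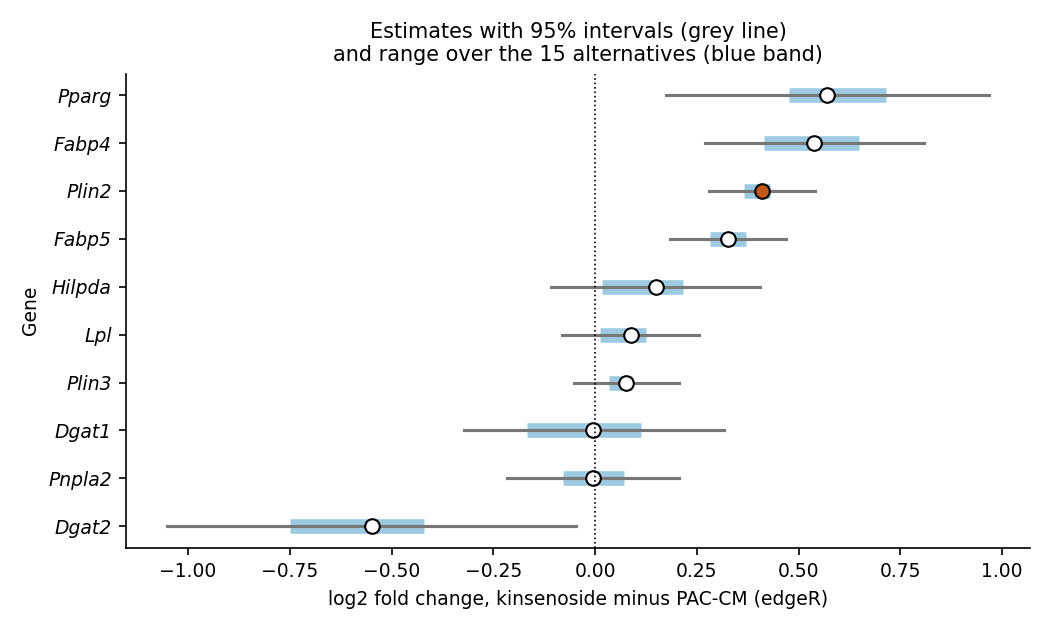
Log2 fold change of each gene (points, kinsenoside minus PAC-CM, edgeR; the filled point passed the test) with its 95% interval (grey lines) and its range over 15 alternatives (blue bands). Only Plin2 is filled, at 0.41; Pparg has the highest estimate at 0.57 and Dgat2 the lowest at -0.55.

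The lipases and their inhibitor showed no called difference. Lpl, lipoprotein lipase, which frees fatty acids from lipoproteins outside the cell (chromosome 8, 68880491 to 68907448, plus strand), had CPM of 604, 575 and 589 in PAC-CM and 576, 673 and 573 with kinsenoside. Kinsenoside replicate 2 was the highest and replicate 3 the lowest of all 6 libraries. The log2 fold change was 0.09 (SE 0.0739, 95% interval -0.08 to 0.26, edgeR adjusted p = 0.637). Pnpla2, the gene of adipose triglyceride lipase, the first lipase to act on the droplet (chromosome 7, 141455198 to 141460743, plus strand), had 74.2, 64.2 and 70.8 CPM in PAC-CM and 67.9, 74.6 and 59.7 CPM with kinsenoside. Its groups overlapped fully, with an estimate of -0.01 (95% interval -0.22 to 0.21, edgeR adjusted p = 0.989). Hilpda, a small hypoxia-induced inhibitor of that lipase (chromosome 6, 29272488 to 29275446, plus strand), had 144, 152 and 130 CPM in PAC-CM and 180, 141 and 138 CPM with kinsenoside. One library, kinsenoside replicate 1, was high, and the other kinsenoside libraries lay within the PAC-CM range. The log2 fold change of 0.15 (95% interval -0.11 to 0.41, edgeR adjusted p = 0.59) fell to 0.02 without that library. The ratio of Hilpda to Pnpla2 counts was 1.94, 2.38 and 1.84 in PAC-CM and 2.65, 1.89 and 2.31 with kinsenoside, with overlap.

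The last step of triglyceride synthesis is made by DGAT1 and DGAT2, enzymes that share a reaction but not a protein family. Dgat1 (chromosome 15, 76502015 to 76511953, minus strand) had CPM of 12.0, 12.5 and 12.9 in PAC-CM and 10.0, 11.6 and 14.6 with kinsenoside. The kinsenoside libraries lay on both sides of the PAC-CM libraries, with a coefficient of variation of 19.2% against 3.85%. The estimate was 0.00 on the log2 scale (95% interval -0.32 to 0.32, edgeR adjusted p = 0.996). Dgat2 (chromosome 7, 99153658 to 99182719, minus strand) had 103, 103 and 128 counts in PAC-CM and 64, 88 and 57 with kinsenoside, or 2.39, 2.17 and 2.90 CPM against 1.47, 2.09 and 1.39 CPM. It was the member whose kinsenoside libraries all lay lower, though replicate 2 was close to PAC-CM replicate 2. The log2 fold change was -0.55 (SE 0.22, 95% interval -1.05 to -0.05), with an edgeR adjusted p of 0.301 that passed in none of 15 alternatives. The ratio of Dgat1 to Dgat2 counts was 5.01, 5.77 and 4.46 in PAC-CM and 6.81, 5.56 and 10.5 with kinsenoside, again with overlap.

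**Figure D3:**
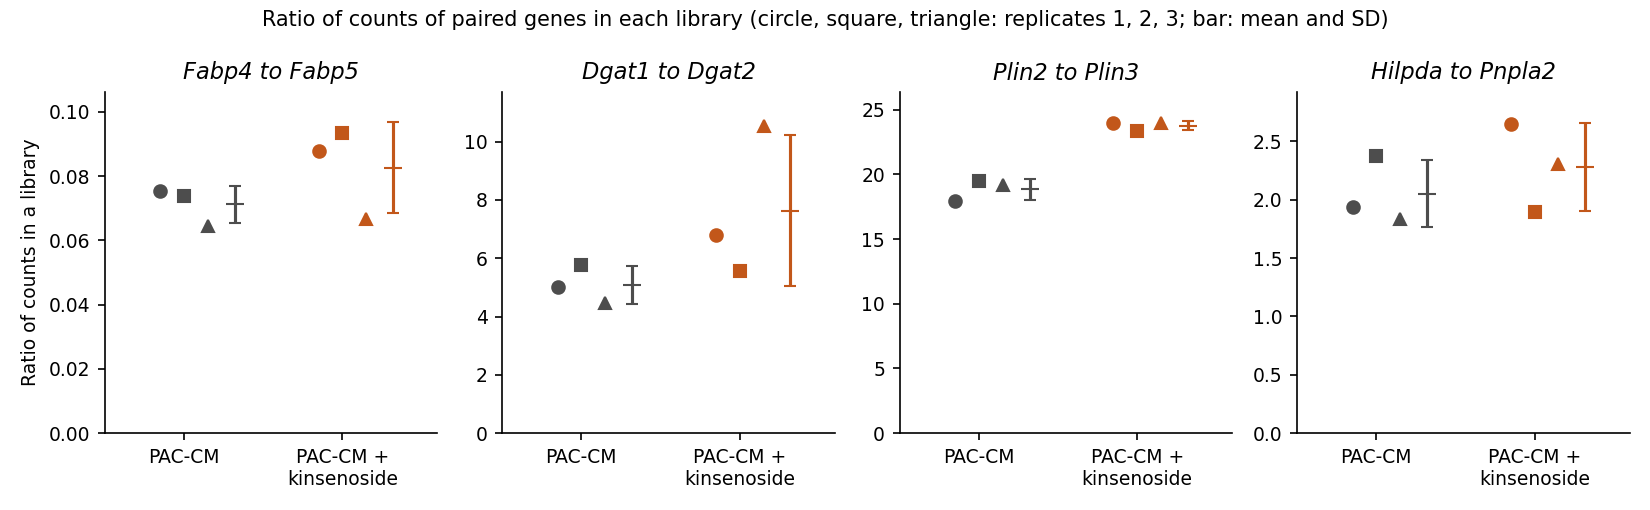
Ratio of counts of 4 pairs of genes within each library (vertical axes, each from 0), for 3 PAC-CM libraries (grey) and 3 kinsenoside libraries (orange), with mean and SD. The groups separate for Plin2 to Plin3 (at most 19.5 against at least 23.3) and overlap for the other pairs.

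Levels between genes were compared per kilobase of the longest annotated transcript, in PAC-CM. Plin2 was first at 1240 ± 32 CPM per kb (SD, n = 3), then Fabp5 at 246 ± 5.03, Hilpda at 145 ± 11.6 and Lpl at 143 ± 3.41. Hilpda and Lpl did not differ beyond their spread on this length, but did per kb of all exons joined, at 129 ± 10.3 and 56.3 ± 1.34. Plin3 followed at 34.1 ± 0.576, Pnpla2 at 26.6 ± 1.95, Fabp4 at 13.4 ± 0.99 and Dgat1 at 6.61 ± 0.254 CPM per kb. Pparg, at 1.57 ± 0.148, and Dgat2, at 1.10 ± 0.166, were last. The longest transcripts of Fabp4 and Fabp5 retain introns. On the longest protein-coding transcript, a length chosen after the data were seen, Fabp5 was at 806 ± 16.5 CPM per kb and Fabp4 at 63.2 ± 4.68, which puts Fabp4 above Plin3 and Pnpla2. The 10 genes together made up 0.410% to 0.416% of the counts of a PAC-CM library and 0.497% to 0.513% of a kinsenoside library. Plin2 gave 55.4% to 57.5% of the members' counts in PAC-CM and 58.6% to 61.1% with kinsenoside.

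The rest of the pathway was described from 9 lists of other genes, of which 155 were tested. By edgeR none of the 155 was called in either direction, 32 had an unadjusted p under 0.05 (2075 of all 13901), limma-voom called none and DESeq2 called 6. Their median log2 fold change was 0.00, against -0.01 for all tested genes and 0.12 for the members.

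Of 9 tested genes of fatty acid uptake and binding, none was called, 4 had an unadjusted p under 0.05, and the median was 0.06. Cd36, the scavenger receptor that takes up fatty acids and oxidized lipoproteins, had 1065, 1085 and 1348 CPM in PAC-CM and 1496, 1695 and 1930 CPM with kinsenoside, with no overlap. Its log2 fold change was 0.59 (SE 0.122) at an edgeR adjusted p of 0.0907, and it was called by DESeq2. Slc27a1, a fatty acid transport protein, was at 212 ± 12.6 and 198 ± 19.6 CPM (SD, n = 3 each). Ffar2, a receptor of short-chain fatty acids named here after its values were seen, had 11, 7 and 7 counts in PAC-CM and 32, 23 and 22 with kinsenoside (log2 1.73, SE 0.394, edgeR adjusted p = 0.106). Dbi and Gpr84, of the same list, were also named after their values were seen. Dbi was higher without overlap in CPM (log2 0.214, edgeR adjusted p = 0.242). Gpr84 went the other way, at 162.5 ± 24.1 and 121.5 ± 20.5 CPM, with overlap (log2 -0.376, edgeR adjusted p = 0.311). Of 21 tested PPAR targets, Cd36 again among them, none was called, 5 had an unadjusted p under 0.05, and the median was 0.00. Besides Cd36, Abcg1 was higher (log2 0.315, edgeR adjusted p = 0.11). Cpt1a (-0.27), Nr1h3 (-0.21) and Acaa2 (-0.208) were lower (edgeR adjusted p = 0.0899, 0.182 and 0.238). Abcg1, Cpt1a, Nr1h3 and Acaa2 were named after their values were seen, and their groups did not overlap in CPM. DESeq2 called Abcg1 and Cpt1a. Tgm2, a transglutaminase, stood at 1204 ± 117 and 1198 ± 129 CPM. Among 23 receptors, partners and cofactors of PPARs none was called, 2 had an unadjusted p under 0.05, and the median was -0.01. Its most abundant genes, the transcription factors Cebpb and Stat6, had estimates of -0.07 and -0.05, and the coactivator gene Pprc1 the largest, 0.43 (edgeR adjusted p = 0.257).

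Of 13 other lipid droplet proteins none was called, 2 had an unadjusted p under 0.05, and the median was -0.03. Hsd17b11, a droplet-associated dehydrogenase, and Bscl2, the droplet assembly protein seipin, had estimates of -0.03 each. Ldah, a droplet-associated hydrolase, had the largest, -1.27 (SE 0.469, edgeR adjusted p = 0.321). Its counts were 2715, 929 and 2586 in PAC-CM and 809, 818 and 769 with kinsenoside, so PAC-CM replicate 2 lay with the kinsenoside libraries; without it edgeR called Ldah. Of 18 genes of triglyceride and sterol ester synthesis none was called, 3 had an unadjusted p under 0.05, and the median was -0.02. Soat1, the macrophage enzyme that esterifies cholesterol, was at 412 ± 8.09 and 461 ± 23.5 CPM (log2 0.21, edgeR adjusted p = 0.178). Acsl1, which activates fatty acids, was at 463 ± 30.5 and 351 ± 77.9 CPM (log2 -0.36, edgeR adjusted p = 0.354). Gpam, the acyltransferase of the first step, had -0.66 (edgeR adjusted p = 0.0982; called by DESeq2), at 6.37 ± 0.912 and 3.90 ± 0.310 CPM.

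**Figure D4:**
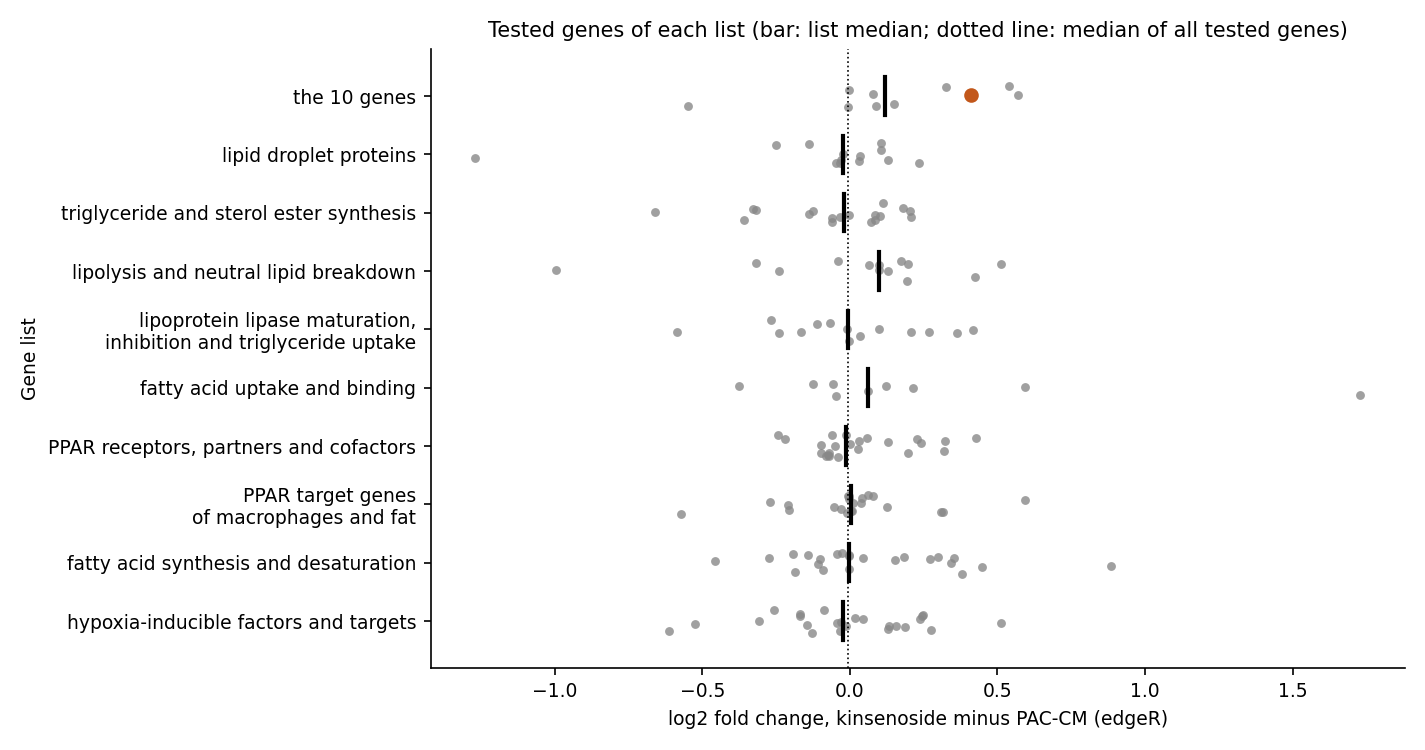
Log2 fold change (kinsenoside minus PAC-CM, edgeR) of the 10 genes and of the tested genes of 9 lists, 1 point per gene, with the list's median (bar) and the median of all tested genes (dotted line, -0.01). The filled orange point, Plin2, is the single call; the lists' medians lie between -0.03 and 0.10.

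Of 13 genes of lipolysis and neutral lipid breakdown none was called, 4 had an unadjusted p under 0.05, and the median was 0.10. Lipa, the lysosomal acid lipase, was at 743 ± 46.3 and 824 ± 112 CPM, and the cholesteryl ester hydrolase gene Nceh1 at 200 ± 8.61 and 222 ± 14.2 CPM (edgeR adjusted p = 0.423 and 0.229). Mgll, the monoglyceride lipase, had the largest estimate at 5 CPM or more, 0.51 with an SE of 0.647. Abhd6, another monoglyceride lipase, named after its values were seen, had 88, 98 and 90 counts in PAC-CM and 38, 48 and 40 with kinsenoside (edgeR adjusted p = 0.0787; called by DESeq2). Daglb and Pnpla6, named in the same way, were also lower without overlap in CPM (log2 -0.32 and -0.24, edgeR adjusted p = 0.207 and 0.217). Of 14 genes around lipoprotein lipase none was called, 3 had an unadjusted p under 0.05, and the median was -0.01. Apoe, a lipoprotein component that macrophages secrete, had 0.21, its receptor gene Lrp1 -0.07, and Apoc2, the activator of lipoprotein lipase, 0.42 (edgeR adjusted p = 0.503, 0.825 and 0.334). The groups overlapped in CPM for Apoc2. Lipg and Lipc, named after their values were seen, were lower without overlap (log2 -0.266 and -0.585, edgeR adjusted p = 0.199 and 0.29). Lipg was at 113.8 ± 6.9 and 91.7 ± 8.65 CPM, and Lipc at 2.45 ± 0.633 and 1.59 ± 0.152 CPM.

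Of 23 genes of fatty acid synthesis and desaturation none was called, 4 had an unadjusted p under 0.05, and the median was 0.00. Acly, which makes cytosolic acetyl-CoA, had an estimate of 0.00, Hsd17b12, of chain elongation, 0.35 (SE 0.308), and the desaturase gene Scd2 0.88 (SE 0.534). Of 24 hypoxia-inducible factors and their targets, the class to which Hilpda belongs, none was called, 6 had an unadjusted p under 0.05, and the median was -0.02. Hif1a, the factor itself, was at 502 ± 10.8 and 502 ± 19.0 CPM, P4ha1, a collagen prolyl hydroxylase, had an estimate of -0.01, and Car9, a carbonic anhydrase, had the largest, -0.61 (edgeR adjusted p = 0.0716; called by DESeq2).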

How the data were processed

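The authors deposited 1 table of whole-number counts per Ensembl gene, not normalized, with 1 column per library, per the file headers. The build was GRCm38, and STAR, DESeq2 1.16.1, StringTie 1.3.1c, FastQC 0.11.2 and bcl2fastq 2.20 were used, per the submitters' processing notes, listed without roles; the tool that made the counts and its use of strand are not given in the sources used here. No member shares exon bases with another GENCODE M21 gene. Columns were matched to samples by library name. Genes were tested with edgeR 4.0.16 (R 4.3.3): filterByExpr, TMM, robust quasi-likelihood fits on group with 4 residual degrees of freedom, two-sided, Benjamini-Hochberg adjustment, threshold 0.05. The script was tested on simulated counts. Standard errors are the log2 fold change over the root of F. CPM use library totals. Alternatives were DESeq2 1.42.0, limma-voom (limma 3.58.1), other scalings, filters, dispersion and threshold, a replicate block and leaving out each library. Members and lists were chosen with earlier results of these data known. Named list genes are those called, or else the 2 most abundant, and the largest change at a mean of 5 CPM or more. In some lists, not all, genes with an unadjusted p under 0.05 were added after their values were seen. Lengths are from GENCODE M21 and promoters from RefSeq (GRCm38.p6), which held 5 of 10 members.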

Additional observations from a re-analysis of the deposited data

How the results depend on the processing

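The number of calls depended on the tool and on single libraries. Over all genes edgeR called 71, DESeq2 441, limma-voom 39, non-robust estimates 36 and a threshold of 0.01 called 11; leaving out 1 library gave 13 to 98. Members called were 1 with edgeR, 3 with DESeq2 (Plin2, Fabp4 and Fabp5), 0 at the threshold of 0.01, and 0 to 2 with a library left out. Genes of the pathway lists called were 0 with edgeR, 6 with DESeq2 (Abcg1, Abhd6, Car9, Cd36, Cpt1a and Gpam) and 0 to 1 with a library left out. The cause of these shifts was not tested. Of all calls 40.8% were higher with TMM and 28.4% of 88 with total count scaling, which put the median of all genes at -0.05; the share was 52.8% with non-robust estimates, 72.7% of the 11 at the threshold of 0.01, and 48.0% (without kinsenoside replicate 1) to 75.0% of 20 (without kinsenoside replicate 2) with a library left out, and 57.1% to 61.5% in the other 4 such fits, so which direction held more calls depended on the setting. With the replicate number as a block, edgeR called 42 genes, 0 members and 1 list gene (Cd36), and Plin2 had an adjusted p of 0.0565. The labels share only a number: deviations of same-numbered libraries correlated at 0.009, -0.101 and 0.135, and not every library correlated best with its own number. Estimates near 0 changed sign. Dgat1 was 0.0041 with RLE scaling, 0.0012 with the filter of more than 1 CPM, and -0.17 to 0.11 with a library left out. Pnpla2 was 0.0021 with RLE scaling and -0.080 to 0.071 with a library left out. The other members kept their sign in all 15 alternatives. The sign of all 4 ratio differences held whichever library was left out. Union exon lengths gave the same order of levels. Pparg and Dgat2 had 57 to 221 counts per library; their coefficients of variation were 9.47% and 15.1% in PAC-CM and 18.1% and 23.1% with kinsenoside, against 8.17% and 9.48% from counting in PAC-CM.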
